A study of Mus musculus with 2 samples.

Results

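Lgr5, Lrig1, Tnfrsf19, Aqp5, Runx1, Cckbr, Prom1 and Cd24a are genes used to mark stem and progenitor cells in the glands of the adult gastrointestinal tract, most of them in the adult stomach, and here they were read in the fetal mouse stomach. They were chosen by name, as 8 of the 43346 Ensembl genes of the deposited tables. The rule for choosing them uses no measured value, but earlier results of these data were known when they were chosen. The data are 2 total RNA-seq libraries of stomach tissue of strain B6NCrl at embryonic day 14.5, biological replicates 1 and 2 of 1 group, each from the stomach of 1 pup. No treatment, mutation or other condition is given, so the values describe a level in each library and the distance between the libraries. Each library started from 10 ng of RNA, kept RNAs over 200 nt and carried spike-in RNAs of known sequence, per the labels.

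The libraries held 25072242 expected counts in replicate 1 and 25599910 in replicate 2, and spike-ins took 5.60% of them in replicate 1 and 6.71% in replicate 2. An expected count is the number of reads the authors' model gave a gene, and TPM, a share of all transcripts, also divides by transcript length, so levels of different genes are compared in TPM only. The sex label, pooled male and female for both libraries, did not match their content. Ddx3y, on the Y chromosome, had 2550 counts in replicate 1 and 0 in replicate 2, while Xist, the RNA of the inactive X, had 13.5 counts in replicate 1 and 32038 in replicate 2. Markers of the exocrine and early pancreas also separated the libraries, with a summed 714 TPM over 12 genes in replicate 1 against 46.3 TPM in replicate 2, and 7 of the 8 averaging 100 counts or more were over 2-fold apart. Defining genes of the stomach wall were present in both, among them Epcam of epithelium (266 and 245 TPM) and Barx1 of stomach mesenchyme (108 and 94.5 TPM), in replicates 1 and 2 in that order. The samples were also collected on different days. Apart from sex-linked genes such as Xist and Ddx3y, sex, collection day, library preparation and pancreatic content thus cannot be told apart in a difference between the replicates.

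In the adult stomach, gland epithelium is renewed from stem cells whose position differs by region. Lgr5 marks cells at the base of antral glands and, with Tnfrsf19, chief cells of the corpus, while Lrig1 and an enhancer of Runx1 mark progenitors that include the isthmus, the narrow part of the gland where division is frequent. Aqp5 and Cckbr mark cells of antral glands, and Prom1 and Cd24a encode surface proteins used to sort progenitor cells of several epithelia. At the fetal stage studied here the glands have not yet formed, and all 8 genes are also known from cells outside gut epithelium.

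In the E14.5 stomach, 6 of the 8 genes were detected, meaning TPM 1 or more in both libraries. Of all 43346 genes 34.9% met that rule, and of the 21474 protein coding genes 61.8%. Cd24a was by far the most abundant, Prom1, Lrig1 and Tnfrsf19 stood at middle levels, Runx1 and Lgr5 were low, and Cckbr and Aqp5 stayed under TPM 1 in both libraries. Mean TPM spanned 974-fold between Cd24a and Aqp5, and the span was 2052-fold in replicate 1 and 615-fold in replicate 2, since Aqp5 rests on 3 and 11 counts. The order was the same in both libraries, and in all 7 neighbouring pairs the lower value of the higher gene exceeded the higher value of the lower gene. The narrowest step was that between Prom1 and Lrig1, where those facing values were 1.18-fold apart. As these are bulk samples, fewer cells of a type and less RNA per cell cannot be told apart at any of these levels.

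**Figure D1:**
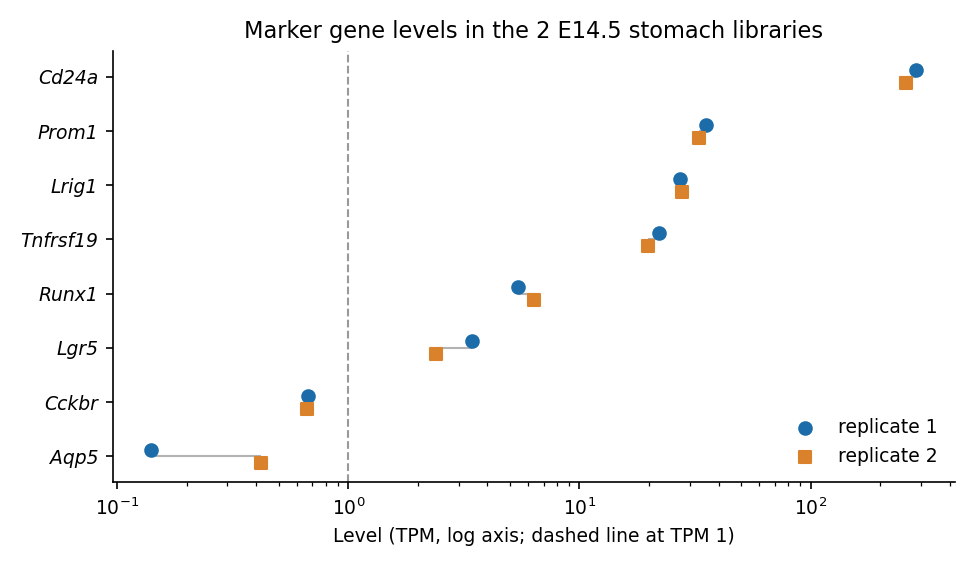
Level of each of the 8 marker genes in TPM (horizontal log axis), with replicate 1 as circles and replicate 2 as squares, a grey line joining the pair, and a dashed line at TPM 1. Cd24a stands highest at 287 and 258 TPM, 6 genes lie right of the line in both libraries, and Cckbr and Aqp5 lie left of it.

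Cd24a encodes a short glycoprotein anchored to the outer face of the cell membrane (chr10:43578284-43584265 in mm10, plus strand). Replicate 1 had 8300 counts of it and replicate 2 had 7925, or 287 and 258 TPM, a mean of 272.8 ± 20.4 TPM (SD, n = 2). That mean exceeded 96.7% of the 13271 detected protein coding genes. Set beside the epithelial adhesion gene Epcam in the same library, the Cd24a level was 1.08 times as high in replicate 1 and 1.06 times in replicate 2. The level per unit of Epcam was thus close in both, as it also was for Prom1 (0.133 and 0.135) and Tnfrsf19 (0.083 and 0.081). It was wider apart for Lrig1 (0.102 and 0.114), Runx1 and Lgr5. Which cell types gave the Cd24a RNA was not tested.

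Prom1, or CD133, encodes a membrane protein of microvilli and other protrusions (chr5:43993620-44102032, minus strand). Its 2152 counts in replicate 1 and 2124 in replicate 2 gave 35.4 and 33.0 TPM, a mean of 34.2 ± 1.68 TPM (SD, n = 2), above 68.8% of detected protein coding genes. Prom2, its relative at plasma membrane protrusions, stood lower at 10.6 TPM in replicate 1 and 8.92 TPM in replicate 2. The level of Prom1 was thus 3.33 times that of Prom2 in replicate 1 and 3.70 times in replicate 2.

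Lrig1, a membrane protein that dampens ErbB receptor signalling, lay close behind Prom1 (chr6:94604529-94700158, minus strand). It had 2177 counts in replicate 1 and 2278 in replicate 2, for 27.2 and 27.9 TPM and a mean of 27.6 ± 0.474 TPM (SD, n = 2). Among the members over a mean count of 100 this was the smallest relative spread, with an SD of 1.72% of the mean. Tnfrsf19, a TNF receptor family member also called Troy, had 1591 counts in replicate 1 and 1493 in replicate 2, for 22.2 and 19.8 TPM, a mean of 21 ± 1.70 TPM (SD, n = 2; chr14:60963875-61046490, minus strand). Both genes stood in the middle of the detected protein coding genes, above 62.4% of them for Lrig1 and 54.2% for Tnfrsf19.

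Runx1, a DNA-binding transcription factor, had 444 counts in replicate 1 and 560 in replicate 2 (chr16:92601466-92826149, minus strand). Its level was 5.44 TPM in replicate 1 and 6.37 TPM in replicate 2, above 22.0% of detected protein coding genes. Lgr5, a receptor for the secreted R-spondins, had 231 counts in replicate 1 and 188 in replicate 2 (chr10:115450311-115587780, minus strand). At 3.43 and 2.39 TPM, a mean of 2.91 ± 0.735 TPM (SD, n = 2), its level exceeded 10.6% of detected protein coding genes. Its spread was the widest among the 6 members over a mean count of 100, with an SD of 25.3% of the mean.

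Cckbr encodes the receptor for gastrin and cholecystokinin (chr7:105425731-105470898, plus strand). It had 25 counts in replicate 1, with a 95% exact Poisson interval of 16.2 to 36.9, and 28 in replicate 2, with an interval of 18.6 to 40.5. The level was 0.67 TPM in replicate 1 and 0.66 TPM in replicate 2, so its place under the threshold did not rest on 1 library. Aqp5 encodes a water channel (chr15:99590782-99594829, plus strand). Its 3 counts in replicate 1 had an interval of 0.619 to 8.77 and its 11 counts in replicate 2 one of 5.49 to 19.7, for 0.14 and 0.42 TPM. Such intervals cover counting error only, because PCR copies were not marked and several reads may stem from 1 molecule.

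The 6 marker genes averaging 100 counts or more lay, by their median, about as far apart between the replicates as genes in general. None of the 6 was over 2-fold apart, against 38 of 12761 genes under the same filter, or 0.298%. At so low a share, 0 of 6 says nothing particular about the marker genes. Their median log2 ratio, replicate 1 over replicate 2, was 0.06, beside 0.01 for all those genes, and the median size of the ratio, whichever the direction, was 0.10 for both. Ratios were scaled to the typical gene. Library sizes set from spike-in counts would have moved every log2 ratio up by 0.27, and with them Lrig1, at -0.04, would have turned to 0.22. With 1 library on each side no p-value exists for any gene.

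Relative to the typical gene, Lgr5 and Runx1 lay farthest apart, in opposite directions. With spike-in library sizes this order did not hold, as the log2 ratio was 0.59 for Lgr5 and -0.04 for Runx1. Lgr5 was higher in replicate 1, with a log2 ratio of 0.32 and a counting interval of 1.02 to 1.52 for the fold. Runx1 was lower in replicate 1, with a log2 ratio of -0.31 and an interval of 0.709 to 0.913. Both intervals lie to one side of equality, but they leave out the spread between embryos and preparations, and 7.57% of the 12761 genes were at least as far apart as Lgr5 and 7.94% at least as far as Runx1. The other 4 ratios were 0.11 for Tnfrsf19, 0.09 for Cd24a, 0.04 for Prom1 and -0.04 for Lrig1. Epithelial markers were higher in replicate 1 in 7 of 7 genes, with a median log2 ratio of 0.12 and a sum of 1929 TPM in replicate 1 against 1692 TPM in replicate 2. So were endothelial markers in 5 of 5 genes (median 0.10), mesothelial markers in 3 of 3 (median 0.36) and mesenchymal markers in 5 of 7 (median 0.04), so the direction was not particular to epithelium. It was not shared by all lists either. Neuron and glia markers were higher in replicate 1 in 2 of 7 genes (median -0.01). For those averaging 100 counts or more, it was 2 of 4 erythroid (median -0.02) and 3 of 5 leukocyte and blood progenitor markers (median 0.03). The part of these shifts, and of the pancreatic RNA, in the ratios of the marker genes was not tested.

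**Figure D2:**
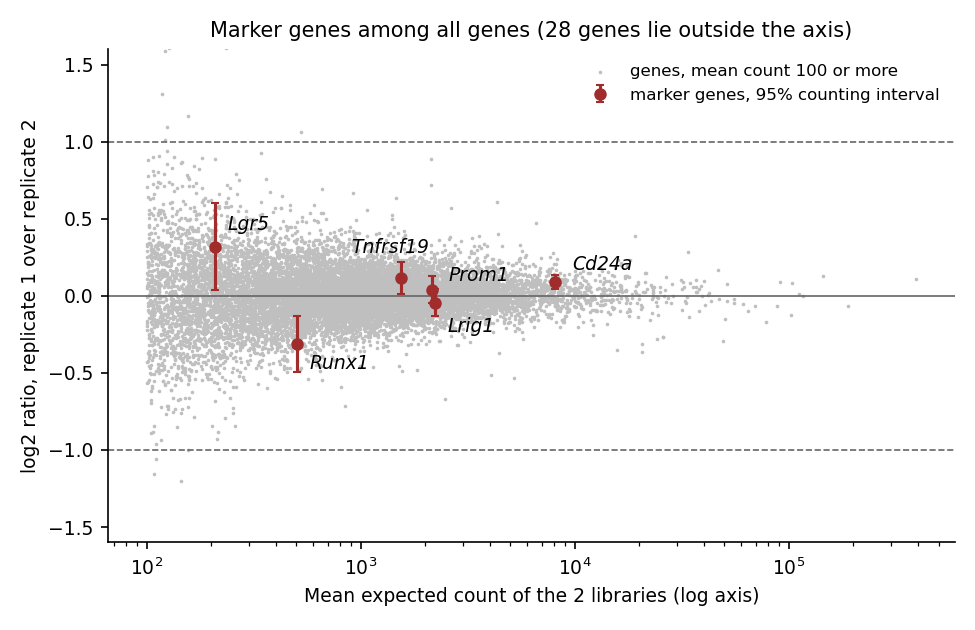
Log2 ratio of replicate 1 over replicate 2 (vertical axis) against the mean expected count (horizontal log axis) for genes averaging 100 counts or more in grey, with 6 marker genes in red and bars for the 95% counting interval. The marker genes lie between -0.31 (Runx1) and 0.32 (Lgr5), inside the dashed lines that mark 2-fold, and 28 genes fall outside the plotted range.

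For Lgr5 the distance depended on the unit. In TPM its log2 ratio was 0.52, where TPM moved the median ratio of all genes by 0.06. The deposited length of the gene, averaged over the transcripts assigned to it, was 4091 bases in replicate 1 and 4493 bases in replicate 2. The full-length transcript Lgr5-201 took 73.2% of the gene's TPM in replicate 1 and 88.1% in replicate 2. The retained-intron transcript Lgr5-205 had 1.96% in replicate 1 and 11.0% in replicate 2, on only 3.04 and 12.7 counts. With the deposited posterior mean estimates the mean share of Lgr5-201 was 54.0%, so the split of so few reads was not stable, and the count ratio does not use it.

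The R-spondin pathway around Lgr5 had RNA at each step from ligand to target. R-spondins bind Lgr receptors and restrain the membrane ligases Rnf43 and Znrf3, which otherwise remove Wnt receptors from the cell surface. Of 20 genes listed for the pathway besides Lgr5, 19 were detected, or 95%, beside 61.8% of all protein coding genes. At a threshold of TPM 5 it was 13. The list was chosen with earlier results of these data known, so its share above the background is a description and not a test. Among the 17 averaging 100 counts or more, 0 were over 2-fold apart, against 0.298% of all genes under that filter. Among the ligands, Rspo3 had 18.6 TPM in replicate 1 and 18.3 TPM in replicate 2, Rspo1 had 15.9 and 13.5 TPM, and Rspo2 had 5.76 and 5.39 TPM. Rspo4 was the gene not detected, with 1 count in replicate 1 and 0 in replicate 2, where a count of 0 does not exclude a low level.

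Lgr5 was not the most abundant of the 3 R-spondin receptors of its family. Lgr4 had 29.1 TPM in replicate 1 and 28.8 TPM in replicate 2, which is 8.47 and 12.0 times the Lgr5 level of the same library. Lgr6 was the lowest of the family at 1.14 TPM in replicate 1 and 1.31 TPM in replicate 2, so Lgr5 exceeded it 3.01-fold in replicate 1 and 1.82-fold in replicate 2. The ligases stood at similar levels, Rnf43 with 14.8 TPM in both libraries and Znrf3 with 13.1 TPM in replicate 1 and 14.5 TPM in replicate 2. The most abundant genes of the list were Ctnnb1, encoding beta-catenin (455 and 421 TPM), the transcription factor gene Tcf7l2 (107 and 110.3 TPM) and Lgr4.

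Within the list, 5 genes were taken as targets of Wnt signalling. Axin2, a feedback inhibitor, had 154 counts in replicate 1 against 222 in replicate 2, a log2 ratio of -0.50 with a counting interval of 0.570 to 0.869 for the fold. The transcription factor gene Sp5 had 80 counts in replicate 1 against 130 in replicate 2, a log2 ratio of -0.68. Both were picked after their values were seen, as the widest of the list with 50 or more counts in each library. Nkd1, a further feedback inhibitor, stood at 12.8 TPM in replicate 1 and 12.9 TPM in replicate 2, a log2 ratio of -0.08. Notum, encoding a secreted Wnt inhibitor, had a log2 ratio of -0.18, and the transcription factor gene Ascl2 one of 0.15. Of the 5 targets 4 were thus lower in replicate 1, but 2 with spike-in library sizes, where Nkd1 (0.19) and Notum (0.08) turned, and 3 by the ratio of TPM, where Notum (0.05) turned. Over the 17 genes of the list averaging 100 counts or more, 6 were higher in replicate 1 and 11 lower. Their median log2 ratio was -0.04, beside 0.01 for all genes, and Lgr5 itself was higher in replicate 1 (0.32).

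**Figure D3:**
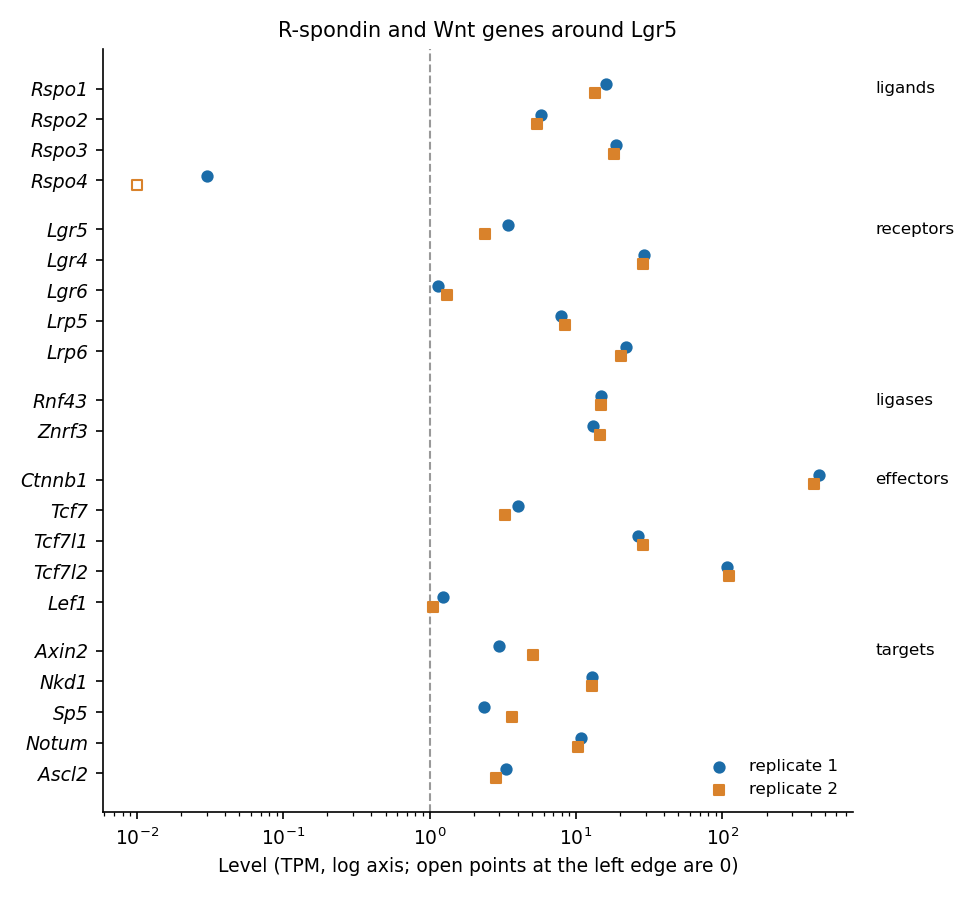
Levels in TPM (horizontal log axis) of Lgr5 and 20 R-spondin and Wnt pathway genes, ordered by role, with replicate 1 as circles, replicate 2 as squares and a dashed line at TPM 1. Lgr4 (29.1 and 28.8 TPM) stands right of Lgr5 (3.43 and 2.39 TPM), and Rspo4 alone lies left of the line.

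The ErbB pathway, in which Lrig1 acts as a brake, was detected for 9 of 13 listed genes, or 69.2%, a share near the 61.8% of all protein coding genes. Among the receptors Erbb2 had 38.1 TPM in replicate 1 and 35.3 TPM in replicate 2, Erbb3 had 20.6 and 19.95 TPM, and Egfr had 19.2 and 15.4 TPM. Erbb4 stayed under TPM 1 with 42 counts in each library. Lrig1 was therefore below Erbb2 and above Egfr in both libraries. The relatives Lrig3 (20.6 TPM in replicate 1 and 18.6 TPM in replicate 2) and Lrig2 (12.9 TPM in both) were lower than Lrig1, which stood 1.32 and 1.5 times as high as Lrig3. Of the ligands, Egf had 0.60 TPM in replicate 1 and 0.70 TPM in replicate 2 and Ereg 0.13 and 0.12 TPM, whereas Tgfa reached 6.66 and 4.98 TPM and Nrg1, encoding a neuregulin, 6.60 and 3.88 TPM.

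For 21 close relatives and partners of the 8 genes, 14 were detected, or 66.7%, again near the 61.8% of protein coding genes. Among the 11 averaging 100 counts or more, 1 was over 2-fold apart, against 0.298% of all genes under that filter. That gene was Cckar, the other cholecystokinin receptor, with 705 counts in replicate 1 against 343 in replicate 2, a log2 ratio of 1.06. Its level of 14.8 TPM in replicate 1 and 6.77 TPM in replicate 2 was 22.1 and 10.3 times that of Cckbr, so the low level of Cckbr was not shared by its relative. Gast, encoding gastrin, a ligand of Cckbr, had 61 counts in replicate 1 and 33 in replicate 2, or 10.0 and 5.11 TPM. Cck, encoding cholecystokinin, had 20 and 23 counts, or 2.02 and 2.19 TPM. Cckar is known from pancreatic cells, and the share of the pancreatic RNA of replicate 1 in its ratio was not tested.

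Aqp5 lies beside Aqp2 and Aqp6 on chromosome 15, and the 3 water channel genes were all at or near zero. Aqp2 (chr15:99579055-99584547) had 0 counts in both libraries and Aqp6 (chr15:99601400-99605477) had 2 in replicate 1 and 0 in replicate 2. The water channel gene with the highest level on the list was Aqp3, known from basal cells of layered epithelia, with 27.1 TPM in replicate 1 and 19.9 TPM in replicate 2. Aqp3 thus exceeded Aqp5 by 194-fold in replicate 1 and 47.5-fold in replicate 2, a range set by the 3 and 11 counts of Aqp5. At this depth Aqp5 RNA was seen in both libraries, but a difference between them could not be resolved, with a fold of 0.277 and a counting interval of 0.0496 to 1.05.

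Runx1 had the highest level of the 3 RUNX factor genes. Runx2 had 1.75 TPM in replicate 1 and 0.72 TPM in replicate 2, and Runx3 had 0.16 and 0.10 TPM on 5 and 7 counts. Their shared partner Cbfb, which does not bind DNA itself, stood at 57.6 TPM in replicate 1 and 54.5 TPM in replicate 2, or 10.6 and 8.56 times Runx1. Runx1 is known also from blood stem cells and leukocytes. Of 9 listed leukocyte and blood progenitor genes, 7 were detected, or 77.8%, beside 61.8% of all protein coding genes. The sum over the 9 was 128 TPM in replicate 1 and 126 TPM in replicate 2, of which Cd34 alone held 57.0 and 52.0 TPM. Not detected were Itgam (0.74 and 0.58 TPM) and Gfi1 (0.35 and 0.19 TPM). The leukocyte surface gene Ptprc had 3.36 TPM in replicate 1 and 3.31 TPM in replicate 2, and Runx1 exceeded it 1.62-fold and 1.92-fold. Spi1, Myb, Itgam and Gfi1 also stood below Runx1 in both libraries. Above it in both were Cd34, Tyrobp (35.85 and 41.7 TPM) and Csf1r (17.13 and 16.35 TPM). Itga2b was above it in replicate 1 only. Of the 5 averaging 100 counts or more, 3 were higher in replicate 1 and 2 lower, with a median log2 ratio of 0.03. The 2 lower were Tyrobp (-0.28) and Ptprc (-0.16), the direction of Runx1 (-0.31). The 3 higher were Myb (0.42), Cd34 (0.07) and Csf1r (0.03). How much of the Runx1 level came from blood cells was not tested.

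Among the remaining partners, Edar, a close relative of Tnfrsf19 in the TNF receptor family, had 3.42 TPM in replicate 1 and 2.56 TPM in replicate 2, and Tnfrsf19 stood 6.49 and 7.73 times higher. Siglecg, a leukocyte receptor of the Siglec family that binds CD24, had 5 counts in replicate 1 and 6 in replicate 2.

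**Figure D4:**
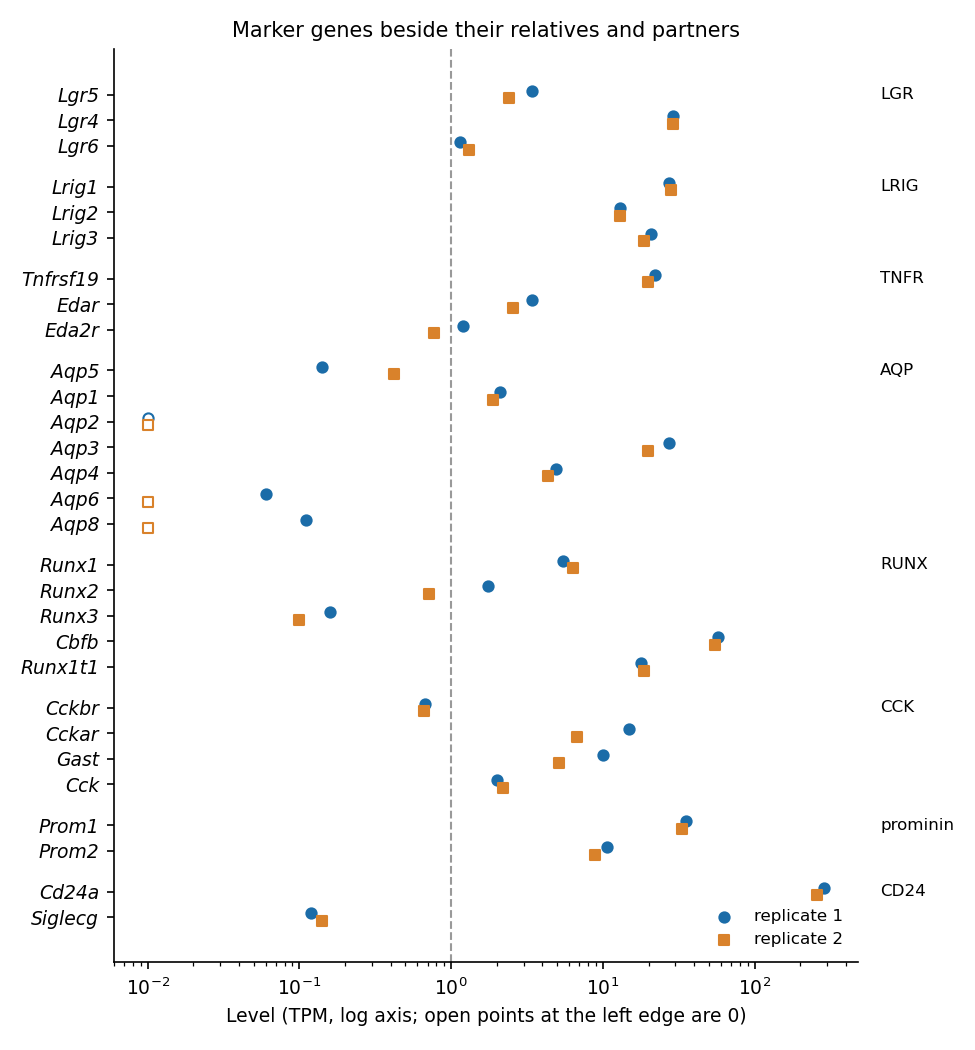
Levels in TPM (horizontal log axis) of the 8 marker genes, each above its listed relatives and partners, with replicate 1 as circles and replicate 2 as squares, open symbols at the left edge for a value of 0 and a dashed line at TPM 1. Cckar (14.8 and 6.77 TPM) stands right of Cckbr, Aqp3 (27.1 and 19.9 TPM) stands right of Aqp5, and Runx1 stands right of Runx2 and Runx3.

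Transcripts showed which annotated start each gene was assigned to. These shares are the authors' model estimates, and of the 35 transcripts of the 8 genes, 23 had the same length in the deposited tables and in the later annotation that gave the start positions. By gene it was 8 of 8 for Lgr5, 6 of 7 for Runx1, 4 of 5 for Lrig1, 3 of 8 for Prom1 and 0 of 2 for Tnfrsf19. Where lengths differ, the starts of the models counted may differ from those given here. Runx1 has a distal and a proximal promoter, whose proteins differ at the N-terminus. The distal transcript Runx1-201 took 34.2% of the gene's TPM in replicate 1 and 37.6% in replicate 2. Transcripts starting 128821 bases downstream took 65.8% and 62.4%, made up of the coding Runx1-202 (46.2% and 46.5%) and the retained-intron Runx1-206 (19.6% and 15.8%). The proximal share was thus the larger in both libraries, with a mean of 64.1% ± 2.43 (SD, n = 2). With posterior mean estimates the proximal share was 56.5% in replicate 1 and 55.9% in replicate 2, still above the distal one at 36.9% and 38.8%.

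The 250 bases before each RefSeq start (GRCm38.p6, minus strand, CpG dinucleotides in capitals) are shown because the pair differs in base composition. The distal window is chr16:92826075-92826324 and holds 2 CpG at 45.6% GC, and the proximal one is chr16:92697330-92697579 and holds 27 CpG at 67.6% GC. The median over 32851 such windows was 6 CpG and 52.4% GC, and 91.4% of windows had fewer CpG than the proximal one. The start annotated for Runx1-201 lies inside the distal window.
Runx1 distal: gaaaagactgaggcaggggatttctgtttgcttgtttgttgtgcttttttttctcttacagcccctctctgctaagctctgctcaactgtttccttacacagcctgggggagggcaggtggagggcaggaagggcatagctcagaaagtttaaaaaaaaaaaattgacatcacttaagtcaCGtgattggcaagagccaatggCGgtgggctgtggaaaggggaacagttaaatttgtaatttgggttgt
Runx1 proximal: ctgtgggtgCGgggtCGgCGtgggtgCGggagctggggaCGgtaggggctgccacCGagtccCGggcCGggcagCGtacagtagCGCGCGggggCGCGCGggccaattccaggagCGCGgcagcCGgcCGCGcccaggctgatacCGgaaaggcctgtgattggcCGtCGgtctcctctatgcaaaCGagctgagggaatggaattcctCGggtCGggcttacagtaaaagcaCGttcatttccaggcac

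Tnfrsf19 was divided almost evenly between a pair of starts 8519 bases apart. The upstream transcript Tnfrsf19-201 took 52.1% of TPM in replicate 1 and 46.0% in replicate 2, and the downstream Tnfrsf19-202 took 47.9% and 54.0%. The leading transcript therefore differed between the libraries, while the mean share of Tnfrsf19-202 was 51.0% ± 4.30 (SD, n = 2), so neither start led by more than that spread. The windows before the RefSeq starts, chr14:61046856-61047105 upstream and chr14:61037988-61038237 downstream, are shown for this even division. They held 9 and 8 CpG. The core CTTTGA that TCF and LEF factors bind, searched on both strands, occurred 1 time in the downstream window and 0 times in the upstream one, and 13.8% of all windows hold it. The GC box GGGCGG, with overlapping matches counted, occurred 3 times in the downstream window and 0 times in the upstream one, and 32.7% of all windows hold it. The upstream RefSeq start lies 386 bases before that annotated for Tnfrsf19-201.
Tnfrsf19 upstream: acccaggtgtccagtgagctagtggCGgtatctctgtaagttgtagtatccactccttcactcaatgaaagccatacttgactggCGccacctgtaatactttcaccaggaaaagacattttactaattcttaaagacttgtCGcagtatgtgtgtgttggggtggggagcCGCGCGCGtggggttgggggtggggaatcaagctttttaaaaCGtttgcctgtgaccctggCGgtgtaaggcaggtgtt
Tnfrsf19 downstream: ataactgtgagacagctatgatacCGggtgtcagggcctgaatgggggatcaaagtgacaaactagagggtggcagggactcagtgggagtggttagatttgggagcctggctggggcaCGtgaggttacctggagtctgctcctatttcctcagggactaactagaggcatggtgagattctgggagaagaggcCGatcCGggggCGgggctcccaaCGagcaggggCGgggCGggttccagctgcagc

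Prom1 RNA was assigned mainly to its upstream starts, which took 93.4% of TPM in replicate 1 and 85.6% in replicate 2. Nearly all of that was Prom1-203, with 90.7% and 79.4%. Prom1-207, starting 7264 bases downstream of the first start, took 6.45% in replicate 1 and 14.2% in replicate 2, on 132 and 289 counts. An antisense gene, Gm16401, overlaps the upstream starts and had 56 counts in replicate 1 and 69 in replicate 2. It is not stated whether counting used strand, so reads of the pair cannot be told apart, although the antisense counts were few beside the 2152 and 2124 of Prom1. The windows before the upstream (chr5:44101737-44101986) and downstream (chr5:44094769-44095018) RefSeq starts are shown for their unequal use. They held 9 and 3 CpG. The RUNX core TGTGGT, searched on both strands, and the GC box each occurred 1 time in the upstream window and 0 times in the downstream one, and 14% of all windows hold the RUNX core.
Prom1 upstream: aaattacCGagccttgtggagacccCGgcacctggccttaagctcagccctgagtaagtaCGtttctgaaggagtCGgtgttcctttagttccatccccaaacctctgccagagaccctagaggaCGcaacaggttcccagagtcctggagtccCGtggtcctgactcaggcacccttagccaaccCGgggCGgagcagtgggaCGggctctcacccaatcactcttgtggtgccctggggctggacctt
Prom1 downstream: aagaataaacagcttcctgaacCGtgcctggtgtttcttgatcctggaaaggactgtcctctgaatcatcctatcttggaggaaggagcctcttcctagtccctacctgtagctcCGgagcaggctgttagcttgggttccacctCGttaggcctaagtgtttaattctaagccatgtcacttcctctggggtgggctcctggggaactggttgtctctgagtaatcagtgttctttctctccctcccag

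Lrig1 reads fell mostly on Lrig1-202, with 69.9% of TPM in replicate 1 and 76.9% in replicate 2, and on Lrig1-201, with 28.2% and 16.8%. Their starts lie together, and that start group took 98.1% of TPM in replicate 1 and 93.7% in replicate 2. Slc25a26 on the opposite strand overlaps the end of Lrig1 and had 144 counts in replicate 1 and 169.6 in replicate 2. Cckbr-201 carried 84.1% of Cckbr in replicate 1 and 100% in replicate 2, and Cd24a has 1 annotated transcript. For Aqp5 the 3 counts of replicate 1 were all assigned to Aqp5-201 and the 11 of replicate 2 all to Aqp5-202, which are too few to tell transcripts apart. The window before the RefSeq start of Aqp5 held 38 CpG, more than 98.1% of windows, but both annotated Aqp5 starts lie inside it, so most of it is annotated as transcribed. The Lrig1 window held 26.

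**Figure D5:**
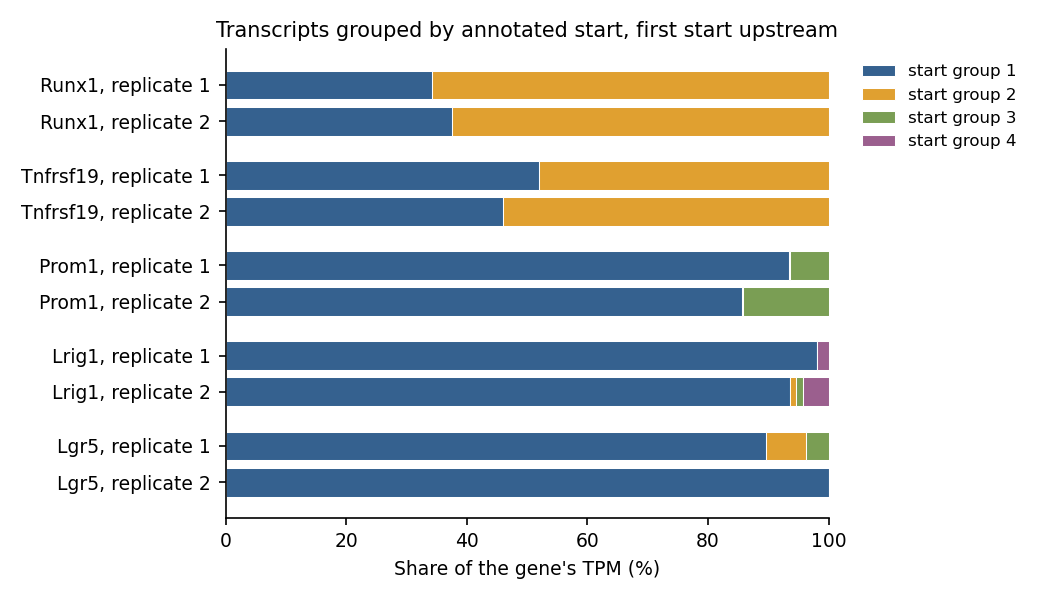
Share of each gene's TPM (horizontal axis, percent) assigned to transcripts grouped by annotated start, for 5 marker genes with 2 or more start groups, replicate 1 above replicate 2, with start group 1 the farthest upstream. Runx1 is mostly in its group 2 (65.8% and 62.4%), Tnfrsf19 is divided almost evenly, and Prom1, Lrig1 and Lgr5 are mostly in group 1.

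Other genes used to mark stem, isthmus or gland base cells of the adult gut were detected in 17 of 19 cases. That is 89.5%, beside 61.8% of all protein coding genes. This list too was chosen with earlier results of these data known, and it shares Axin2 and Ascl2 with the Wnt list, so the share is a description only. The most abundant were Stmn1, encoding a microtubule regulator of dividing cells (1159 TPM in replicate 1 and 1218 TPM in replicate 2), the matricellular gene Smoc2 (108 and 98.4 TPM) and the proliferation gene Mki67 (50.0 and 48.9 TPM). Smoc2, a gene of the Lgr5 cells of the adult intestine, was 31.6 times the Lgr5 level in replicate 1 and 41.2 times in replicate 2. The 2 genes not detected were Hopx (0.64 and 0.89 TPM) and Bhlha15, known also from pancreatic acinar cells, which had 109 counts in replicate 1 and 14 in replicate 2 and was the widest apart of the list. Of the 15 averaging 100 counts or more, 0 were over 2-fold apart, against 0.298% of all genes under that filter.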

How the data were processed

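The authors deposited a gene and a transcript table per library. They used mm10 with GENCODE M4, per the labels and the notes deposited with the files. The aligner, the counter and the strand setting were not given in the sources used here. Per the file headers, values were expected counts (estimated reads per gene, not normalized), TPM (scaled to a total that includes spike-ins) and, for transcripts, the percent of the gene's TPM in the deposited tables. Symbols and positions came from GENCODE M21 on the same assembly, and promoter windows from RefSeq (GRCm38.p6), which matched 6 of the 8 genes. Entries named only by a number took 15.5 and 25 counts and were left out.

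Log2 ratios are replicate 1 over replicate 2 from expected counts, not rounded, with 0.5 added and library sizes by edgeR's TMM (edgeR 4.0.16, R 4.3.3), for genes averaging 100 counts or more. Counting intervals are exact 95% Poisson intervals for a count and exact binomial (Clopper-Pearson) ones for a ratio, on rounded counts. SDs over 2 libraries hold both embryo and preparation. The ratio step was tested on simulated data. Transcript starts within 1000 bases were grouped. Alternatives were size factors of DESeq2 1.42.0, spike-in scaling, the ratio of TPM, other thresholds, filters and pseudocounts, the posterior mean of TPM, and each library alone. The 8 genes, the lists and their tests were chosen with earlier results of these data known. All 8 were named, and from each list the 3 highest by mean TPM, genes under TPM 1 in both libraries, and ligands, receptors and direct relatives could be named. Axin2, Sp5, Nkd1, Notum, Ascl2, Bhlha15, Atp4a, Atp4b and the cell type markers named singly were chosen after their values were seen. Further tools were scipy 1.17.1, pandas 2.3.3, numpy 2.4.6 and matplotlib 3.10.9 in Python 3.11.15.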

Additional observations from a re-analysis of the deposited data

How the results depend on the processing

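The number of marker genes detected was 6 with posterior mean TPM, with TPM rescaled to leave out spike-ins and mitochondrial genes, and in each library alone, 7 at TPM 0.5 and 5 at TPM 5. At TPM 5 the lists shrank to 13 R-spondin and Wnt genes, 5 ErbB genes and 9 relatives and partners. Other stem, isthmus and gland base genes fell to 12 and products of adult gland cells to 5. The count of all genes over 2-fold apart was 63 with spike-in library sizes, 631 at a mean count of 10 and 5062 without a filter, or 3.60% and 20.4% of the genes tested under those filters. Without a filter 1 marker gene, Aqp5, passed 2-fold, and at a mean count of 10 it was 0 of 7. Spike-in library sizes moved the median log2 ratio of the marker genes from 0.06 to 0.33, while the median of all genes moved by 0.27. DESeq2 size factors and a pseudocount of 2 left the 8 ratios within their counting error. Ratios have no value without a replicate, and no paired analysis was possible because there is 1 group. Depth limits Aqp5 and Cckbr, whose counts fix neither a ratio nor a transcript.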

Other observations

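Products of mature gland cells were detected for 10 of 16 matched genes, or 62.5%, a share close to the 61.8% of all protein coding genes. The highest were Tff1, a secreted trefoil peptide of surface mucous cells (99.8 TPM in replicate 1 and 102 TPM in replicate 2), Pgc, encoding a pepsinogen (33.4 and 26.8 TPM), and Tff2, a trefoil peptide of neck cells (14.1 and 13.0 TPM). Atp4b, the beta subunit of the proton pump of parietal cells, had 12.6 TPM in replicate 1 and 12.5 TPM in replicate 2, while its partner subunit Atp4a had 1.37 and 1.76 TPM on 38 and 34 counts. Lipf, encoding gastric lipase, had 0 counts in both libraries, and Gif, encoding gastric intrinsic factor, had 24 in replicate 1 and 11 in replicate 2. Of the 8 averaging 100 counts or more, 0 were over 2-fold apart, against 0.298% of all genes under that filter.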
